A study of Homo sapiens with 6 samples.

Results

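The cytosolic ribosomal protein genes described here are the protein-coding genes whose symbol is RPL or RPS followed by a number (with an optional A, X or L), together with RPLP0, RPLP1, RPLP2 and RPSA, without the RPS6 kinases, the pseudogenes and the Y-linked copies. This rule found 84 members, 52 of the large and 32 of the small subunit, among the 57820 identifiers in the count files. RNA was sequenced from C4-2B-ENZR cells, an established human line of prostate cancer that is resistant to enzalutamide, a drug used against prostate cancer. In 3 libraries the cells had received a negative-control siRNA, and in 3 an siRNA against RUVBL1, an ATPase of the AAA+ family that works with RUVBL2 in chromatin remodelling and in assembling protein and RNA complexes. All 6 libraries come from the same resistant line; the labels give neither the siRNA sequence nor the time after transfection, and do not state whether the replicates are separate cultures. The p-values therefore set the difference between the groups only against the spread among these libraries. That spread may be technical.

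The ribosome of the cytoplasm is built from a small and a large subunit, and each carries a fixed set of ribosomal proteins, most of them encoded by 1 gene. The small subunit holds the decoding centre and the channel for the mRNA, and the large subunit holds the peptidyl transferase centre, the tunnel through which the new protein leaves and the stalk that recruits elongation factors. Most of these proteins are present in 1 copy per ribosome, and many of the mRNAs begin with a C followed by a run of pyrimidines, the 5′ terminal oligopyrimidine tract through which mTOR signalling controls their translation. A few members have a paralogue that can take their place in the ribosome, often in a restricted tissue.

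The libraries held between 18985542 and 36054489 estimated counts. Below, a normalized count is an estimated count divided by the library's effective size (its total multiplied by its TMM factor, the trimmed mean of M-values scaling in edgeR) and multiplied by the mean effective size of the 6 libraries, 26348516. For RUVBL1, the target of the siRNA, the control group had 4681, 4654 and 4758 normalized counts and the RUVBL1 siRNA group 2725, 2618 and 2709.7. The groups were far apart, with -0.81 as the log2 fold change (SE 0.025, edgeR adjusted p = 3.74e-10). The prostate luminal markers KLK3, KLK2, TMPRSS2, FOLH1, HOXB13, KRT8 and KRT18 were all detected. The summed normalized counts of these 7 were 97534 to 100041 in the control libraries and 81961 to 85274 after RUVBL1 siRNA, with 4 of 7 lower and 0 higher by edgeR. Of 9 markers of other cell types, 8 could be matched. Their sums were 777 to 890 in the control libraries and 499 to 551 after RUVBL1 siRNA. Only 3 of them had enough counts to be tested, and of these 2 were lower and 0 higher by edgeR. Beside both sets of markers, 19.1% of all genes tested were higher and 23.1% lower with TMM scaling. Most of these counts came from CD68 (mean 321 in the control group and 165 after RUVBL1 siRNA), ACTA2 (274 and 109) and COL1A1 (237 and 238). CD68 and ACTA2 were the markers called lower. The basal keratin KRT5 and the T cell gene CD3E were at 0 in all 6 libraries. Whether these marker changes have any part in the ribosomal protein results was not tested, and in bulk RNA fewer cells of a type and less RNA per cell cannot be told apart.

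Of the 84 members, 83 passed the filter on low counts. RPL39L, a paralogue of RPL39, had 1 count in each of 2 control libraries and 0 in the other libraries, and was not tested. With TMM scaling, 22 of the 83 tested members were higher after RUVBL1 siRNA at an edgeR adjusted p under 0.05, against 19.1% of all 16006 genes tested, and 19 were lower, against 23.1% of all genes. The other 42 members did not pass the test. The median log2 fold change of the members was 0.02, beside 0.01 over all genes. On the large subunit 11 of 51 tested members were higher and 14 lower (median log2 fold change 0.02), and on the small subunit 11 of 32 were higher and 5 lower (median 0.03).

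How many members count as higher depended on how the libraries were scaled. When the library total alone was used, 56 members were higher and 3 lower, with a median log2 fold change of 0.12; the same scaling called 31.1% of all genes higher and 14.4% lower, and the median of all genes moved to 0.11. With library totals 33 large subunit members were higher and 2 lower, and 23 small subunit members were higher and 1 lower. Relative to the summed counts of the members themselves, 18 were higher and 22 lower (15.2% and 24.7% of all genes), with a median of -0.01. Between these lay upper-quartile factors, with 36 members higher and 11 lower (24.1% and 19.5% of all genes), and DESeq2 size factors, with 26 and 19 (19.7% and 22.6%). Across 5 scalings (TMM, DESeq2 size factors, library totals, upper-quartile factors and the family total) the same 17 members were higher each time: RPL3, RPL5, RPL12, RPL13, RPL14, RPL22, RPL28, RPL34, RPL36A, RPL38, RPLP2, RPS2, RPS4X, RPS12, RPS16, RPS19 and RPS23. Lower in all 5 scalings were 3 members, among them RPL10A and RPL22L1. With the replicate number as a block, edgeR called 40 members higher and 24 lower (23.4% and 25.6% of all genes), and 33 higher and 33 lower relative to the family total (20.2% and 28.6% of all genes). In the blocked TMM fit the standard errors of 46 of the 83 members were below the error that counting alone would give, so its p-values are too small for those members. The p-values given below with the replicate block may be among these. Without the block, DESeq2's own Wald test called 29 members higher and 23 lower (17.1% and 21.1% of all genes), and limma-voom 24 and 22 (18.6% and 22.4%).

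The members as a whole took a larger share of every RUVBL1 siRNA library than of any control library. Control libraries had 7.97%, 8.12% and 8.16% of their counts on the members, and RUVBL1 siRNA libraries 8.77%, 8.85% and 8.87%. The groups did not overlap, and the mean share was 8.08% ± 0.1001 with control siRNA and 8.83% ± 0.0503 with RUVBL1 siRNA (SD, n = 3 each), a difference of 0.747 percentage points (exact two-sided permutation test, p = 0.1, the smallest value that 3 against 3 libraries allow). The large subunit members went from 5.19% to 5.63% and the small subunit members from 2.90% to 3.20%. Over the same libraries the share of counts on genes of the mitochondrial genome was 13.6% ± 0.174 in the control group and 11.4% ± 0.148 after RUVBL1 siRNA (SD, n = 3 each). With the mitochondrial counts left out of the total, the members' share was 9.36% and 9.97%, still without overlap, a smaller difference of 0.609 percentage points (exact permutation p = 0.1). A larger share was not particular to the members. With library totals, the scale of these shares, the median log2 fold change was 0.12 over the members and 0.11 over all genes tested.

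Single members moved by small amounts. Of the 83 tested members, 49 (59.0%) had a log2 fold change within 0.1 of 0, compared with 28.6% of all genes tested, and 5 moved by 0.25 or more, compared with 39.6% of all genes. Without the paralogues and 1 further member with uneven counts, the SD of the log2 fold changes over the remaining 76 members was 0.12; over all 83 tested members it was 0.27, and over all genes 0.40. The members have high counts, and what this adds to their spread was not tested. Small as these differences were, the groups of many members did not overlap. In 28 members all 3 RUVBL1 siRNA libraries lay above all 3 control libraries, in 24 they lay below, and in 31 the groups overlapped. A lack of overlap does not mean that a difference exceeds the spread. RPL10 and RPL11 are among the 28, and neither passed the test with TMM scaling (edgeR adjusted p = 0.452 and 0.0755). Of all genes tested 25.3% were higher and 27.4% lower without overlap. The share without overlap in either direction was 62.7% of members, beside 52.6% of all genes.

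**Figure D1:**
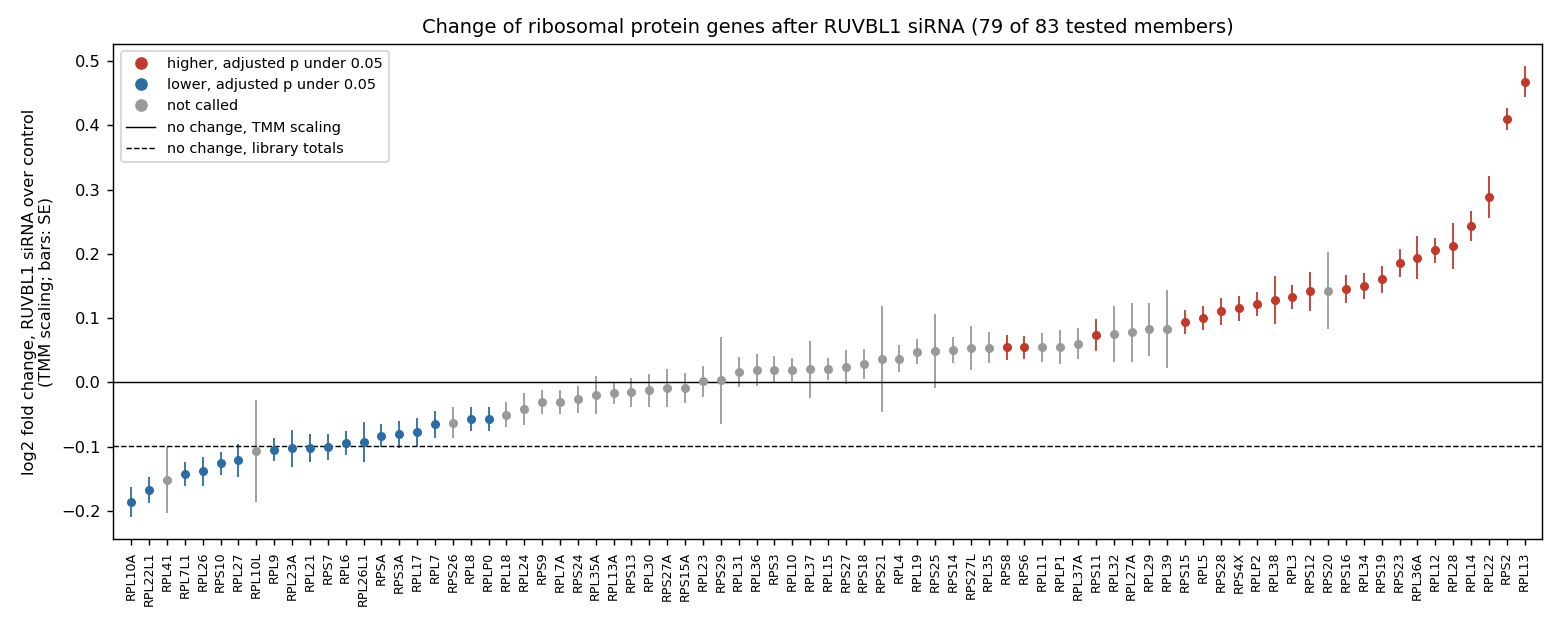
Log2 fold change (RUVBL1 siRNA over control siRNA, TMM scaling, y axis) of 79 of the 83 tested members in order of size (x axis), with the edgeR standard error as bars; red points were higher and blue points lower at an adjusted p under 0.05, grey points were not called, and 4 members are left off, among them RPL3L, whose value lies outside the scale. The solid line marks no change with TMM scaling and the dashed line no change with library totals; most members lie within 0.1 of 0, with RPL13 and RPS2 apart at the upper end.

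Sequence at the transcription start was examined because the family is known for its pyrimidine tract. Start sites were taken from RefSeq (GRCh38.p14), in which 67 of the 84 members had an entry. A gene was said to match when the base at an annotated start was C and each of the next 4 or more bases was C or T, read on the coding strand only. This held for 47 of the 67 members (70.1%) and for 1404 of 27305 genes in the same table (5.14%). The windows shown run from 15 bases before the start to the 15th base of the transcript, 5′ to 3′ on the coding strand, for members that rose, for members that fell and for paralogues; capitals mark the pyrimidine run that begins at the start base, and a window without capitals has no match.
RPL13 (rose), chr16:89560667-89560696, plus strand: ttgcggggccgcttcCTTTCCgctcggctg
RPL22 (rose), chr1:6199581-6199610, minus strand: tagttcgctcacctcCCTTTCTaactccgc
RPL14 (rose), chr3:40457324-40457353, plus strand: gggcgggtcttcttcCTTCTCgcctaacgc
RPL12 (rose), chr9:127451392-127451421, minus strand: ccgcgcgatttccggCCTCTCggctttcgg
RPL22L1 (fell, paralogue of RPL22), chr3:170870181-170870210, minus strand: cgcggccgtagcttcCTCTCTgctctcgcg
RPL26 (fell), chr17:8383179-8383208, minus strand: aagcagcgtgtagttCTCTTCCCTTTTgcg
RPL10A (fell), chr6:35468386-35468415, plus strand: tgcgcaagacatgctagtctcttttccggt
RPL7L1 (fell, paralogue of RPL7), chr6:42879601-42879630, plus strand: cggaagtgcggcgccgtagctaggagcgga
RPS27L (paralogue of RPS27), chr15:63157463-63157492, minus strand: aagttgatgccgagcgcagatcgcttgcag

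Both RPL22 and RPL22L1, which moved in opposite directions, begin with such a run, as do RPL13, RPL14, RPL12, RPL28, RPL36A and RPS23 among the members with the largest rises. For RPL13 this holds for the start shown. Its other annotated starts, at 89560657 and 89560711, have no match. Among the members that fell, RPL26 and RPS10 also match. RPL10A, RPL9, RPL27 and RPL7L1, which fell too, and the paralogues RPL10L, RPL26L1 and RPS27L, have no match at their annotated starts. Of the 47 members with a match, 14 were higher and 7 lower (median log2 fold change 0.04), and of the 20 without, 4 were higher and 8 lower (median -0.03). With library totals the counts were 36 higher and 1 lower with a match and 9 higher and 1 lower without. Of all genes tested, TMM scaling called 19.1% higher and 23.1% lower, and library totals 31.1% and 14.4%. Whether the start sequence has a part in these counts was not tested. A match describes the letters at the annotated start and not the start that these cells used, and RPS2 is among the 17 members missing from the table.

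Among the members that passed the test without overlap, the 8 largest rises were those of RPL13, RPS2, RPL22, RPL14, RPL28, RPL12, RPL36A and RPS23, and each of these was higher in all 5 scalings. RPL13, a large subunit protein in which inherited variants cause a skeletal dysplasia, had normalized counts of 36569.9, 38266 and 38735 in the control libraries and 51736, 52668 and 52688 after RUVBL1 siRNA. Its lowest RUVBL1 siRNA library lay far above its highest control library, and the fitted change was 0.47 on the log2 scale (SE 0.023, edgeR adjusted p = 1.39e-08), a fold of 1.38 between the group means. RPS2, which lines the channel where the mRNA enters the small subunit, had 54562, 54553 and 55064 normalized counts in the control libraries and 73429.5, 72286 and 72394 after RUVBL1 siRNA. The control values of RPS2 were nearly equal to each other, the groups were well apart, and 0.41 was the log2 fold change (SE 0.018, edgeR adjusted p = 3.87e-09). RPL13 and RPS2 are each host to small nucleolar RNAs in their introns in GENCODE 29, RPL13 to 1 and RPS2 to 2.

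RPL14 and RPL28 are structural proteins of the large subunit. Normalized counts of RPL14 were 13332, 13927 and 13940.3 in the control group and 15921, 16484 and 16363 after RUVBL1 siRNA, a log2 fold change of 0.24 (SE 0.023, edgeR adjusted p = 2.96e-06). RPL28 had 16091, 17099 and 17620.4 (control) and 19011, 19763 and 20078 (RUVBL1 siRNA) in the same groups, a log2 fold change of 0.21 (SE 0.035, edgeR adjusted p = 0.00158). In both genes replicate 1 was the lowest library of its group, and every RUVBL1 siRNA library was above every control library. RPL36A, which lies near the exit site for tRNA, went from 14707, 15864 and 15991 to 17343, 17807 and 18122 normalized counts, a log2 fold change of 0.19 (SE 0.033, edgeR adjusted p = 0.00136). RPS23, a protein of the decoding centre, went from 25276, 25921 and 26226 to 28898, 29642 and 29535, a log2 fold change of 0.19 (SE 0.021, edgeR adjusted p = 1.71e-05). Replicate 1 was again the lowest of its group in both genes, and the groups of both were separate.

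The falls, chosen in the same way among members that passed the test without overlap, were smaller than the largest rises. RPL10A, the protein of the mobile L1 stalk beside the tRNA exit site, had normalized counts of 17125, 17492 and 18005 in the control group and 15199, 15333 and 15721 after RUVBL1 siRNA, with a log2 fold change of -0.19 (SE 0.023, edgeR adjusted p = 3.04e-05). The groups did not overlap, and RPL10A was still lower with library totals, at -0.09 on the log2 scale (edgeR adjusted p = 0.00585).

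The call of 5 other members with large falls was lost when library totals were used. RPL26, which lies at the exit of the peptide tunnel, had normalized counts of 35002, 36562 and 36498 in the control group and 32352, 32903 and 32918 after RUVBL1 siRNA (log2 fold change -0.14, SE 0.022, edgeR adjusted p = 2.57e-04; with library totals -0.04, adjusted p = 0.16). RPS10, a small subunit protein that is ubiquitylated on collided ribosomes, had 22689, 22779.7 and 22855 (control) and 20858, 20938 and 20829.8 (RUVBL1 siRNA) (log2 fold change -0.13, SE 0.018, edgeR adjusted p = 1.12e-04; with library totals -0.03, adjusted p = 0.298). The 6 values of RPS10 varied little within each group, and the groups of both genes were separate. RPL27 had 29363, 30419 and 30998 (control) and 27007, 28219 and 28259 (RUVBL1 siRNA) (log2 fold change -0.12, SE 0.026, edgeR adjusted p = 0.00214; with library totals -0.02, adjusted p = 0.521). RPL9 had 19106, 19018 and 19030.2 (control) and 17654, 17572 and 17939 (RUVBL1 siRNA) (log2 fold change -0.10, SE 0.018, edgeR adjusted p = 5.54e-04; with library totals -0.0052, adjusted p = 0.879). RPL27 and RPL9 are large subunit proteins, and in both every RUVBL1 siRNA library was below every control library with TMM scaling. The fifth, RPL7L1, is described with the paralogues.

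**Figure D2:**
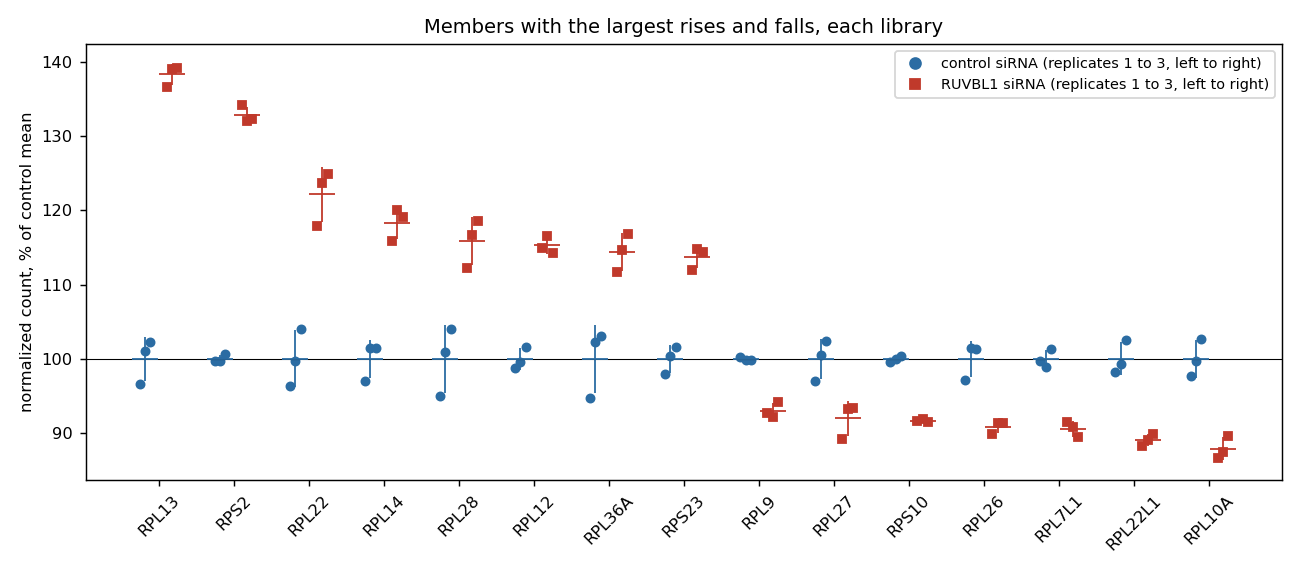
Normalized counts as percent of the control mean (y axis) for the 8 members with the largest rises and 7 of those with the largest falls (x axis), one point per library, with blue circles for control siRNA and red squares for RUVBL1 siRNA; horizontal lines are group means and vertical bars the SD (n = 3). RPL13 and RPS2 stand above the other rises, and the falls form a shallow step. All genes drawn were chosen among those whose groups do not overlap.

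RPL22 and its paralogue RPL22L1 moved apart. RPL22 is an RNA-binding protein at the surface of the large subunit that is dispensable for general translation, and RPL22L1 can replace it; in mouse cells RPL22 is known to hold down the mRNA of its paralogue. RPL22 had normalized counts of 6429, 6653 and 6941 in the control group and 7868, 8259 and 8334 after RUVBL1 siRNA, and RPL22L1 had 16441, 16613 and 17154 (control) and 14767, 14898 and 15047 (RUVBL1 siRNA). Every RUVBL1 siRNA library was above the control libraries for RPL22 and below them for RPL22L1. On the log2 scale the fitted change was 0.29 for RPL22 (SE 0.032, edgeR adjusted p = 1.54e-04) and -0.17 for RPL22L1 (SE 0.021, edgeR adjusted p = 3.34e-05), with the same signs and calls in all 5 scalings. The log2 ratio of RPL22L1 to RPL22 counts, which does not depend on scaling, was 1.35, 1.32 and 1.31 in the control libraries and 0.91, 0.85 and 0.85 after RUVBL1 siRNA. The difference of -0.46 was the most negative among 6 paralogue pairs compared (exact two-sided permutation test, p = 0.1, the smallest value 3 against 3 allow; adjusted over the pairs 0.15). RPL22L1 nevertheless had more counts than RPL22 in all 6 libraries, a comparison of raw counts that does not take length into account. Per kilobase of coding sequence the control means were 45728 normalized counts for RPL22L1 and 17381 for RPL22. This length leaves out the untranslated parts of both mRNAs.

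The other 5 pairs differed less, except for RPL3L and RPL3, where RPL3L had few counts. RPL7L1, a homologue of RPL7 known mainly from ribosome assembly, had normalized counts of 8326, 8266 and 8470.3 in the control libraries and 7649, 7584 and 7473 after RUVBL1 siRNA (log2 fold change -0.14, SE 0.018, edgeR adjusted p = 4.14e-05; with library totals -0.04, adjusted p = 0.0913). RPL7 had 36376, 37842 and 37748 (control) and 35622, 35563 and 35862 (RUVBL1 siRNA) (log2 fold change -0.06, SE 0.021, edgeR adjusted p = 0.0251; 0.0654 with the replicate block), and with library totals its log2 fold change turned to 0.03 (adjusted p = 0.202). Without replicate 2 or replicate 3 of either group the call of RPL7 was lost (edgeR adjusted p between 0.0654 and 0.104). The log2 ratio of RPL7L1 to RPL7 was lower by -0.08, without overlap (exact permutation p = 0.1, adjusted over the pairs 0.15). RPL26L1 had 2032, 2115 and 2135 (control) and 1944, 1963 and 1985 (RUVBL1 siRNA) normalized counts (log2 fold change -0.09, SE 0.031, edgeR adjusted p = 0.0308; with library totals 0.0067, adjusted p = 0.901), and its call was lost without any single library other than control replicate 1 (adjusted p between 0.0563 and 0.0941). It fell less than RPL26, and the log2 ratio of the pair was 0.05 higher, without overlap (exact permutation p = 0.1, adjusted over the pairs 0.15).

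RPS27L, a paralogue of RPS27 that is induced by p53, had normalized counts of 2963, 3099 and 3029 in the control group and 3202, 2989.9 and 3247 after RUVBL1 siRNA (log2 fold change 0.05, edgeR adjusted p = 0.243). RPS27 had 20115, 21039.5 and 21264 (control) and 20541, 21322 and 21611 (RUVBL1 siRNA) (log2 fold change 0.02, edgeR adjusted p = 0.516; 0.00528 with the replicate block). The groups of both genes overlapped, and their log2 ratio differed by 0.03 (exact permutation p = 0.5); without RUVBL1 siRNA replicate 1 the difference was -0.0049. RPL10L, a paralogue used mainly in the testis, had 405, 379 and 354 in the control group and 365, 325 and 367 after RUVBL1 siRNA (log2 fold change -0.11, edgeR adjusted p = 0.319), and RPL10 had 26439, 26139 and 26633 (control) and 26913, 26667 and 26717 (RUVBL1 siRNA) (log2 fold change 0.02, edgeR adjusted p = 0.452; 0.00197 with the replicate block). For RPL10L and RPL10 the log2 ratio differed by -0.13 with overlapping groups (exact permutation p = 0.3). RPL3L, a paralogue of striated muscle, was near the lower limit of detection, with 8.77, 17.5 and 12.8 (control) and 20.03, 31.8 and 23.9 (RUVBL1 siRNA) normalized counts (log2 fold change 0.94, SE 0.37, edgeR adjusted p = 0.0591; 0.0193 with the replicate block). RPL3, which lies close to the peptidyl transferase centre, had 61506, 60671 and 61272 (control) and 68046, 66474 and 66627 (RUVBL1 siRNA) (log2 fold change 0.13, SE 0.018, edgeR adjusted p = 8.06e-05), higher in every RUVBL1 siRNA library than in any control library. The log2 ratio of RPL3L to RPL3 differed by 0.85, the largest difference of the 6 pairs, without overlap (exact permutation p = 0.1, adjusted over the pairs 0.15).

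**Figure D3:**
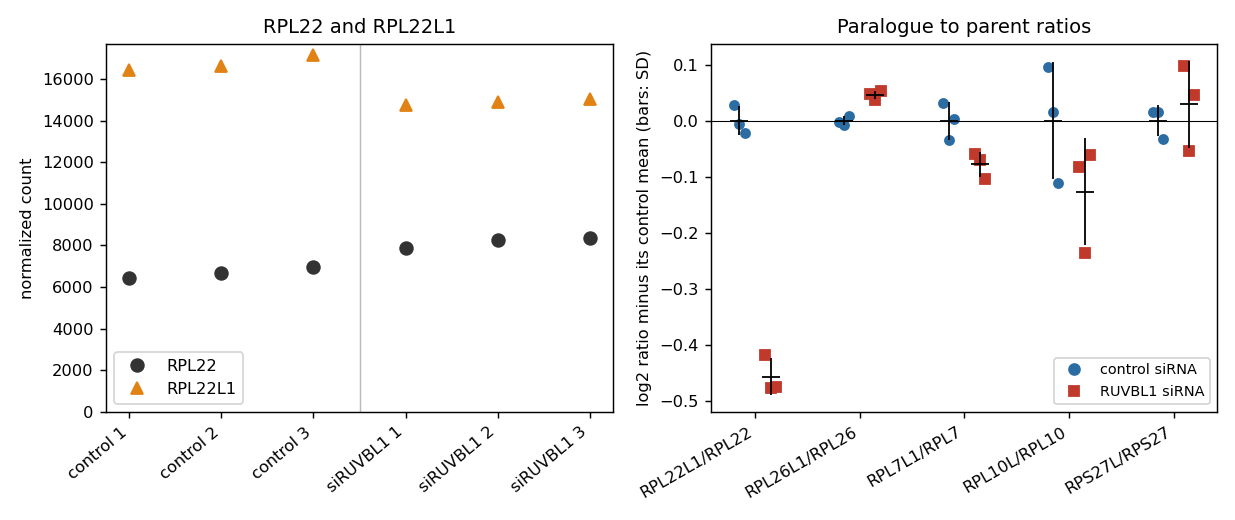
Left, normalized counts (y axis) of RPL22 (black circles) and RPL22L1 (orange triangles) in each of the 6 libraries (x axis); right, log2 ratio of paralogue to parent counts minus the control mean of the pair (y axis) for 5 pairs (x axis), one point per library (blue circles control siRNA, red squares RUVBL1 siRNA), with group mean and SD (n = 3). RPL22 rises as RPL22L1 falls and their log2 ratio differs by -0.46, while the other 4 pairs stay within 0.25 of their control mean; RPL3L to RPL3 is left off because RPL3L had few counts.

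The stalk that recruits elongation factors is made of RPLP0, RPLP1 and RPLP2 on a base of RPL12. RPL12 had normalized counts of 21626, 21797 and 22243 in the control libraries and 25159, 25526 and 25025 after RUVBL1 siRNA, a log2 fold change of 0.21 (SE 0.020, edgeR adjusted p = 4.13e-06). RPLP2 had 15372, 15712 and 15515 (control) and 16748, 17031 and 16929 (RUVBL1 siRNA), a log2 fold change of 0.12 (SE 0.018, edgeR adjusted p = 1.71e-04). Both were higher without overlap between the groups. RPLP1 had 27263, 28671 and 29177 (control) and 28883, 29725 and 29848 (RUVBL1 siRNA), with overlapping groups and a log2 fold change of 0.06 that did not pass the test (edgeR adjusted p = 0.112; 8.03e-05 with the replicate block). RPLP0 had 65860.2, 65133 and 65143 (control) and 63901, 62249.6 and 62416 (RUVBL1 siRNA), a log2 fold change of -0.06 (SE 0.018, edgeR adjusted p = 0.0261) that turned to 0.04 with library totals (adjusted p = 0.128). The call of RPLP0 was also lost without control replicate 2 (edgeR adjusted p = 0.0502) and without RUVBL1 siRNA replicate 2 (0.114) or 3 (0.103). Of the 4 stalk genes 2 were therefore higher and 1 lower with TMM scaling (19.1% and 23.1% of all genes tested). With library totals 3 were higher and 0 lower (31.1% and 14.4% of all genes).

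RPL5 and RPL11 enter the large subunit together with the 5S rRNA and, when free, bind the p53 ubiquitin ligase MDM2. RPL5 had normalized counts of 18655, 18705 and 18865 in the control libraries and 20254, 20036 and 19977 after RUVBL1 siRNA, a log2 fold change of 0.10 (SE 0.018, edgeR adjusted p = 7.18e-04) without overlap. RPL11 had 13659.6, 14120.5 and 14329 (control) and 14454, 14343 and 14940.1 (RUVBL1 siRNA), also without overlap, and its log2 fold change of 0.05 did not pass the test (SE 0.023, edgeR adjusted p = 0.0755). It did pass with the replicate block (7.31e-04), with library totals (0.15, adjusted p = 1.07e-04), with upper-quartile factors (0.00555) and with DESeq2 size factors (0.045). RPS6, the substrate of the S6 kinases, had 58275, 57955 and 58074 (control) and 61141, 60079 and 59812 (RUVBL1 siRNA), a log2 fold change of 0.05 (SE 0.018, edgeR adjusted p = 0.0277) that no longer passed relative to the family total (0.03, adjusted p = 0.537), nor without replicate 2 or replicate 3 of either group (adjusted p between 0.0571 and 0.108). RPSA, a small subunit protein also known as the laminin receptor, had 37898, 38049 and 38299 (control) and 36215, 35914 and 35748 (RUVBL1 siRNA), a log2 fold change of -0.08 (SE 0.018, edgeR adjusted p = 0.00284) that was 0.02 with library totals (adjusted p = 0.555). In RPS6 and RPSA the groups did not overlap.

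Members grouped by place in the ribosome held both higher and lower calls. Of 9 proteins around the rim of the exit tunnel, 2 were higher (RPL22 and RPL38) and 3 lower (RPL17, RPL23A and RPL26), with a median log2 fold change of 0.05. Among 7 proteins along the mRNA channel, 2 were higher (RPS2 and RPS28) and 1 was lower, with a median of 0.02. The 18 members mutated in Diamond-Blackfan anaemia, an inherited failure of red cell production, held 3 that were higher (RPS19, RPS28 and RPL5) and 4 that were lower (RPS7, RPS10, RPL26 and RPL27), with a median of -0.01. With library totals 6 tunnel rim, 5 channel and 10 Diamond-Blackfan members were higher, and of these groups 0, 1 and 0 members were lower. Over all genes tested, the shares higher and lower were 19.1% and 23.1% with TMM scaling and 31.1% and 14.4% with library totals. RPS19, the gene most often mutated in that disease, had normalized counts of 7983, 8406 and 8251 in the control libraries and 9172, 9066 and 9300.2 after RUVBL1 siRNA, a log2 fold change of 0.16 (SE 0.021, edgeR adjusted p = 6.29e-05). All of its RUVBL1 siRNA libraries were above the control libraries.

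Many ribosomal protein genes carry small nucleolar RNAs, which guide the modification of ribosomal RNA, in their introns. In GENCODE 29, 28 members were hosts to 60 such RNAs. Of the 28 hosts, 9 were higher and 5 lower (median log2 fold change 0.03), and of the 55 tested members that host none, 13 were higher and 14 lower (median 0.02). With library totals 23 hosts were higher and 0 lower, and of the members that host none 33 were higher and 3 lower. Beside these, 19.1% of all genes tested were higher and 23.1% lower with TMM scaling, and 31.1% and 14.4% with library totals.

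Of 3 ribosomal protein genes outside the symbol rule, FAU was lower and the others did not pass the test without a replicate block. FAU, a fusion of a ubiquitin-like protein and a small subunit protein, had normalized counts of 12559.6, 12651 and 12574 in the control libraries and 12269, 12138 and 12045 after RUVBL1 siRNA (log2 fold change -0.05, SE 0.017, edgeR adjusted p = 0.0246; with library totals 0.05, adjusted p = 0.0517). The groups of FAU were separate. RACK1, a signalling scaffold on the small subunit, had 43927, 42799.6 and 42618 (control) and 44671, 43329 and 42965 (RUVBL1 siRNA) (log2 fold change 0.02, edgeR adjusted p = 0.572; 8.80e-06 with the replicate block), higher with RUVBL1 siRNA in each same-numbered pair. RPL36AL, a close copy of RPL36A, had 5806, 6107 and 5940.5 (control) and 5838, 6065 and 5921 (RUVBL1 siRNA) (log2 fold change -0.0024, edgeR adjusted p = 0.959). As groups, the libraries of RACK1 and of RPL36AL overlapped.

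The balance between the subunits differed little. The log2 ratio of summed large to summed small subunit counts was 0.842, 0.838 and 0.841 in the control libraries and 0.813, 0.812 and 0.820 after RUVBL1 siRNA. The RUVBL1 siRNA libraries were all lower, by -0.026 on the log2 scale (exact two-sided permutation p = 0.1, the smallest value possible), or 0.982 of the control ratio. With pseudogene counts added to their members the difference was -0.040. A mean of log2 counts per gene in place of the sums gave 0.068 in the opposite direction, and without 2 members with few or uneven counts that mean gave -0.018.

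Estimated counts can be shared with processed pseudogenes, of which this family has many. The files list 1594 pseudogenes named after a member, and their counts came to 5.56% of the members' own. RPL41, the gene of the shortest ribosomal protein, had 28264, 31314 and 31509 normalized counts with control siRNA and 26278, 27674 and 28045 after RUVBL1 siRNA, with all RUVBL1 siRNA libraries lower and a log2 fold change of -0.15 that did not pass the test (SE 0.051, edgeR adjusted p = 0.0636; 0.0192 with the replicate block). The pseudogenes of RPL41, chiefly RPL41P1, together had nearly as many, 97.9% of the RPL41 counts on average in the control libraries and 87.2% after RUVBL1 siRNA. With all pseudogene counts added to their members, RPL41 had a log2 fold change of -0.23 (edgeR adjusted p = 0.00836), and over all members 23 were higher and 20 lower (19.6% and 23.2% of all genes). The 22 higher and 19 lower members were all among these. RPL14, RPL36A, RPL6, RPL7A, RPL21, RPL23A, RPS3A and RPS28 are among the members that also have a pseudogene with over 10% of their counts, so their values are less certain than those of the other members.

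Levels differed widely along the family. Per kilobase of coding sequence, RPL41 had the highest control mean, 404830.1 ± 24267 normalized counts (SD, n = 3), followed by RPS18 with 178996 ± 5531. RPL39 and RPL13A came next with 116738 ± 7027 and 115103 ± 514, and these last values do not differ beyond their spread. The coding sequence of RPL41 is 75 bases and that of RPL39 is 153, so a small error in length weighs heavily on both. The length also leaves out the untranslated parts of the mRNA. The values are therefore not levels per mRNA, and those of members with a short coding sequence may be much too high. At the lower end were the paralogues RPS27L (12025 ± 271), RPL7L1 (10920.4 ± 137), RPL26L1 (4814 ± 125), RPL10L (591 ± 40.4) and RPL3L (10.7 ± 3.56), each per kilobase in the control libraries (SD, n = 3). RPL22L1 was the exception among the paralogues that passed the filter, in the range of the other members.

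Replicate 1 stood apart from replicates 2 and 3 in both groups, and more so in short members, with exceptions. Leaving out 2 members with few or uneven counts, 70 of 81 members had a lower log2 CPM (log2 of counts scaled to a fixed library size) in control replicate 1 than in the mean of control replicates 2 and 3, and 65 of 81 were lower in RUVBL1 siRNA replicate 1. The difference was -0.20 for RPS21, -0.16 for RPS29 and -0.15 for RPL41 in the control group, and -0.14, -0.14 and -0.08 after RUVBL1 siRNA. RPS28, also among the shortest, was above 0 in both groups (0.02 and 0.06), and RPL27A, of 444 bases, was at -0.11 and -0.12. Across the 81 members it went with the log2 coding length, with a Pearson r of 0.655 in the control group and 0.596 after RUVBL1 siRNA; the members share the same 3 libraries in each group, so this is a description of those libraries. The members whose log2 CPM followed the mean of the other members most closely over the 6 libraries were RPL31 (Pearson r = 0.993), RPL36 (0.968) and RPS29 (0.964). In replicates 2 and 3 alone, 31 members were higher and 25 lower by edgeR (20.9% and 24.2% of all genes tested), and 21 of the 22 higher members and 19 of the 19 lower members were among them. Here 21 of the 83 members had a standard error below that of counting alone, so their p-values are too small.

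**Figure D4:**
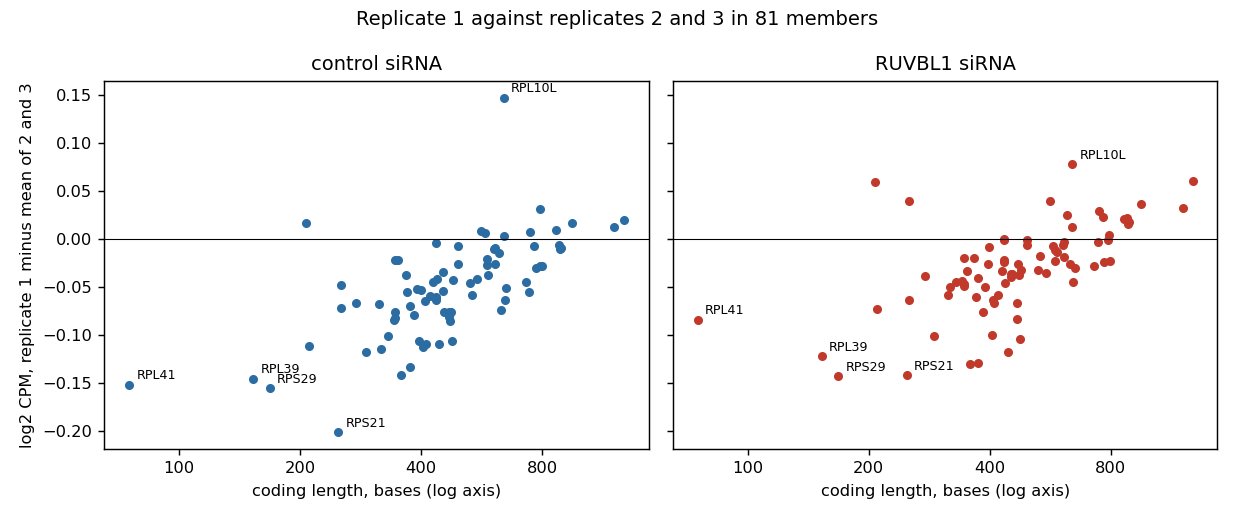
Log2 CPM in replicate 1 minus the mean of replicates 2 and 3 (y axis) against coding length in bases (x axis, log scale) for 81 members, in the control siRNA group (left) and the RUVBL1 siRNA group (right). Points lie mostly under 0 in both groups; RPS21 and RPS29 are the lowest, and RPL41, the shortest, is lower in the control group than after RUVBL1 siRNA.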

How the data were processed

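Gene-level estimated counts, deposited by the authors for 6 RNA-seq libraries (3 per group), were used; many are not whole numbers, so they were rounded. The counting tool, human genome build, annotation and strand setting were not given in the sources used here. Per the submitters' processing notes the tools include Bowtie 0.12.2 and the builds mm8 and mm9, which are mouse builds and do not match the human gene identifiers.

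The files pair no symbols with identifiers; symbols came from the reference tables (51996 of 57820 identifiers). All genes were fitted in edgeR 4.0.16 (R 4.3.3; filterByExpr, TMM, robust quasi-likelihood test, group only), with Benjamini-Hochberg adjustment over 16006 genes and a threshold of 0.05. DESeq2 1.42.0 and limma 3.58.1 (voom) were alternatives. The scripts were tested on simulated data. Values per library are given for the 8 largest called rises and falls whose groups do not overlap and for fixed groups of members; a few of these genes are not reported here. The members, lists and rules were chosen with earlier results of these data known. Same-numbered libraries deviated together (correlation of deviations 0.939, 0.819 and 0.823 over all genes, and 0.885, 0.854 and 0.309 over the members). They were treated as pairs only in the fits with a replicate block, and the labels do not state a pairing. Libraries with different numbers were not compared, so these correlations do not show which libraries belong together. Coding lengths are from GENCODE 29. No protein sequence was used here.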

Additional observations from a re-analysis of the deposited data

How the results depend on the processing

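Of the comparisons' values under all alternatives, 121 stayed close to the reported ones, 14 moved and 2 reversed; of the named genes' values, 477 kept direction and call, 25 gained and 34 lost the call, and 7 reversed. Library totals gave 56 members higher and 3 lower (31.1% and 14.4% of all genes) with a median log2 fold change of 0.12. Upper-quartile factors gave 36 and 11 (24.1% and 19.5% of all genes) with a median of 0.062. These scalings moved the median of all genes to 0.11 and 0.053. The replicate block gave 40 higher (23.4% of all genes), and 33 higher relative to the family total (20.2% of all genes). The median was -0.0081 with the family total, 0.00072 without the filter on low counts and 0.033 with at least 50 counts in 3 libraries. Leaving out 1 library at a time gave medians from -0.00091 to 0.040, 18 to 26 members higher (15% to 16.7% of all genes) and 13 to 23 lower (20.1% to 22.2%). The subunit ratio reversed to 0.068 with mean log2 counts, where 2 members with few or uneven counts made the difference (-0.018 without them), and RPS27L to RPS27 went from 0.029 to -0.0049 without RUVBL1 siRNA replicate 1, and to 0.071 without replicate 2 of that group. With library totals the log2 fold change reversed to 0.0067 for RPL26L1, 0.035 for RPL7, 0.042 for RPLP0 and 0.017 for RPSA. Relative to the family total it reversed to -0.0090 for RPL10 and -0.0043 for RPS27, and RPS27 was at -0.0042 without control siRNA replicate 1 and at 0.044 without RUVBL1 siRNA replicate 1. Apart from the effect of those 2 members and the scalings' own shift of all genes, the cause was not tested. DESeq2's Wald test called 29 members higher and 23 lower (17.1% and 21.1% of all genes), limma-voom 24 and 22 (18.6% and 22.4%). With 3 libraries a group, an exact permutation test cannot go under p = 0.1. Blocking on replicate number (the paired analysis) also gave calls, beyond those in the report, to RPL39 (1.34e-10), RPL13A (1.64e-10), RPL36 (0.00457) and RPL7A (1.06e-14), and took that of RPS3A (0.146). It changed no other call of a gene named here. In this fit 46 of the 83 members had a standard error below that of counting alone, so their p-values are too small. The blocked standard error was 0.0016 for RPL13A and 0.0031 for RACK1, beside a median counting error of 0.0078 over the members.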

Other observations

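Of 17 other mRNAs known for a 5′ terminal oligopyrimidine tract, most of them for elongation and initiation factors, 7 were higher and 8 lower after RUVBL1 siRNA (edgeR adjusted p under 0.05, TMM scaling), with a median log2 fold change of -0.05. EEF1A1, the factor that brings tRNA to the ribosome, had a log2 fold change of -0.15 (SE 0.014) and EIF3E, a subunit of the initiation factor eIF3, -0.15 (SE 0.03). Another eIF3 subunit, EIF3F, was higher by 0.15 (SE 0.022), and the nascent chain factor NACA by 0.15 (SE 0.021). The highest value was that of HNRNPA1, an RNA-binding protein, at 0.25 (SE 0.019). With library totals 8 of the 17 were higher and 1 lower, so most of the lower calls depend on the scaling. The gene still lower was EEF1A1, at -0.05 on the log2 scale (edgeR adjusted p = 0.0324). Of all genes tested, 19.1% were higher and 23.1% lower with TMM scaling, and 31.1% and 14.4% with library totals.

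With TMM scaling, 4 chaperones dedicated to single ribosomal proteins were at or below the control level. Of these 2 were lower and 0 higher (23.1% and 19.1% of all genes tested). With library totals 1 was lower and 0 higher (14.4% and 31.1%). GRWD1, which binds RPL3, had normalized counts of 614, 547 and 593 in the control libraries and 438, 392.5 and 432 after RUVBL1 siRNA (log2 fold change -0.47, SE 0.066). HEATR3, which works with RPL5, had 828, 834 and 829 in the control libraries and 648, 725 and 768 after RUVBL1 siRNA (log2 fold change -0.22, SE 0.059). In both genes the groups did not overlap and the edgeR call was lower (adjusted p = 8.98e-05 for GRWD1 and 0.0105 for HEATR3); with library totals that of HEATR3 was lost (adjusted p = 0.123). BCCIP and TSR2, with log2 fold changes of -0.038 and -0.032, did not pass the test. With library totals their log2 fold changes turned to 0.061 and 0.068 (edgeR adjusted p = 0.115 and 0.224).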
